A study of Mus musculus with 16 samples.

Results

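Selenoproteins, glutathione enzymes and related redox genes were followed in spleen and thymus of EMP3 mutant mice. The members were chosen by gene symbol in the array's annotation: the Selen, glutathione peroxidase, glutathione transferase, peroxiredoxin, thioredoxin and superoxide dismutase families, with catalase, the glutathione synthesis enzymes Gclc, Gclm and Gss, and heme oxygenase 1. The rule found 82 probes of 62 genes among 20794 probes, of which 12771 carried 1 gene symbol. No probe carried the symbols Gsr or Nqo1, which the rule also lists. Earlier values of the Selenop and Gsto1 probes in spleen and of the Gpx1 probe in thymus prompted the choice of the group, so those probes are described without a test there and in the difference between the tissues, and are left out of the counts of members. For Gsto1 only the probe with the highest spleen mean was so treated, and its other probes were tested and counted.

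RNA came from spleen and thymus of 4 male EMP3 mutant mice, 17 weeks old. Each mutant sample was hybridised on cDNA arrays against a pool of wild-type RNA of the same tissue, once with the mutant in Cy5 and once in Cy3, which gave 8 arrays for each tissue. EMP3 is a membrane protein of the PMP22 family, and the nature of the mutation is not given in the labels. Each pool held RNA of 4 wild-type mice by the channel labels, though the labelling protocol gives another number. The series title names brain where the sample labels name spleen, and the latter are used here. The wild-type pool counts as 1 control sample, so differences among wild-type mice were not measured.

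The values are log ratios, read as log2 from the size of a placeholder constant, and taken as mutant over pool. No label states that direction. It is likely for spleen from the design text, and it is not settled for thymus, where the 2 arrays of a mouse opposed each other; with the pool as numerator, all "higher" and "lower" below change places. The arrays gave 20046 to 20639 measured probes each, and no intensities are in the files, so the depth of each value is unknown, the labelled tissues could not be checked against markers, and the number of arrays limits the precision. The 2 arrays of a spleen mouse correlated at 0.0518 to 0.424 over all probes and those of a thymus mouse at -0.440 to -0.249. Thymus mouse 2, whose arrays mirrored each other almost completely (r = -0.922), was left out. Both probes named Emp3 failed the threshold in both tissues: their spleen means were 0.20 ± 0.25 and 0.27 ± 0.38 (SD, n = 4), and their thymus means -0.04 ± 0.10 and 0.05 ± 0.05 (SD, n = 3). In whole organs, fewer cells of a type and less RNA per cell cannot be told apart.

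As background, selenoproteins carry selenocysteine, an amino acid inserted at a recoded stop codon, and many of them are redox enzymes. Glutathione is the main soluble thiol of the cell: peroxidases use it to reduce peroxides, and transferases couple it to electrophiles or use it in reductions. The thioredoxin system reduces protein disulfides and feeds electrons to peroxiredoxins, while superoxide dismutases turn superoxide into hydrogen peroxide. Macrophages and neutrophils, both present in spleen, make oxidants in defence, and many genes that counter them are driven by the transcription factor NRF2 through antioxidant response elements.

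The promoters of the 3 genes that prompted the group are shown to place them on the genome. RefSeq sequence of build GRCm38.p6 held promoters for 55 of the 62 genes. Each run below gives the 120 bases before an annotated start, on the + strand, and capitals mark the letters TATAAA. Where a gene had several annotated starts, one with TATAAA shortly before it was preferred.
Selenop promoter, chr15:3270857-3270976: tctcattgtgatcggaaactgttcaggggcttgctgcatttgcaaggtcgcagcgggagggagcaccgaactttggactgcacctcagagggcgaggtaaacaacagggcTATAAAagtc
Gsto1 promoter, chr19:47854853-47854972: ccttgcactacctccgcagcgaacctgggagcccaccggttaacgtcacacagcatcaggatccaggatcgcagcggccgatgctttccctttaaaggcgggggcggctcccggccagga
Gpx1 promoter, chr9:108338960-108339079: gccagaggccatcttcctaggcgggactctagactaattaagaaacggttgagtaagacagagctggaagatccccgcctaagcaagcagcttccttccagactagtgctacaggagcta
The Selenop run holds TATAAA close to the start and the runs of Gsto1 and Gpx1 do not. Over windows from 250 bases before to 50 after the start, read on the gene's own strand, TATAAA stood in 9 of the 55 member genes (16.4%) and in 9.77% of 27025 genes in the table.

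The core of the antioxidant response element, TGACNNNGC on either strand, stood in the windows of 10 of the 55 member genes (18.2%), against 14.0% of all genes in the table. It was shown because NRF2 targets are among the members; a match is a description of letters, not a binding site. Below are the 4 matches in genes with a probe past the threshold in spleen (Gsta3, Selenok, Txndc2 and Sod1) and the matches in Gclm and Txnrd1, textbook NRF2 targets. The motif is in capitals, and each run reads along the gene's own strand.
Gsta3, chr1:21240448-21240488, + strand: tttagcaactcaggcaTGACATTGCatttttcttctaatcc
Selenok, chr14:29968320-29968360, + strand: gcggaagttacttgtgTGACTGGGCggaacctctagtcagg
Txndc2, chr17:65639935-65639975, - strand: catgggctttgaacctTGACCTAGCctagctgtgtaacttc
Sod1, chr16:90220690-90220730, + strand: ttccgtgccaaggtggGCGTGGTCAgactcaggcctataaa
Gclm, chr3:122245407-122245447, + strand: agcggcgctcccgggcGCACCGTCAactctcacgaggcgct
Txnrd1, chr10:82859098-82859138, + strand: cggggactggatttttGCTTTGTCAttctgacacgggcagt
In Sod1, Gclm and Txnrd1 the core lies on the opposite strand, so the capitals show its reverse complement. The spleen ratios of these genes, given below with the other members, lay on both sides of 0.

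Selenop encodes the plasma selenium carrier, a secreted protein with many selenocysteines. Its probe (5893) read 1.49, 1.52, 1.22 and 1.30 in spleen of mice 1 to 4, a mean log2 ratio of 1.38 ± 0.14 (SD, n = 4) or 2.60-fold. The 8 arrays ran from 1.11 over a median of 1.45 to 1.56, so all lay above 0, and the mean was 1.42 with the mutant in Cy5 and 1.35 with the mutant in Cy3. In thymus the probe read 0.15, 0.00 and 0.01 in mice 1, 3 and 4, with a mean of 0.05 ± 0.08 (SD, n = 3; limma adjusted p = 0.866). The spleen mice lay above the thymus mice, which follows from the choice of this probe by its spleen value.

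Gsto1, an omega-class glutathione transferase that reduces dehydroascorbate, had 3 probes. Probe 19499 had the highest spleen mean and was taken as the one that prompted the group. It read 0.99, 0.88, 1.45 and 1.91 in spleen, with a mean of 1.31 ± 0.47 (SD, n = 4) and arrays from 0.33 to 1.98. Its 4 mice differed by more than those of Selenop, and mouse 4 was the highest. The second probe (6506) read 0.31, 0.60, 0.38 and 0.71, with a mean of 0.50 ± 0.19 (SD, n = 4; 1.42-fold; limma adjusted p = 0.0113), and all 8 arrays were above 0. Since earlier Gsto1 values in spleen prompted the group, the test of probe 6506 is no independent support, though it stays in the counts of members. The third probe (13934) read -0.11, 0.39, 0.24 and 0.17, with a mean of 0.17 ± 0.21 (SD, n = 4; limma adjusted p = 0.221) that failed the threshold. All 3 probes had a mean above 0, and probe 19499 lay above the other 2 in each of the 4 mice. In thymus the 3 means were 0.14 ± 0.03, 0.06 ± 0.04 and 0.03 ± 0.06 (SD, n = 3), none past the threshold.

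Gpx1 encodes the cytosolic glutathione peroxidase, a selenoprotein of most cells. Its probe (19183) read 0.66, 0.64 and 0.10 in thymus of mice 1, 3 and 4, with a mean of 0.47 ± 0.32 (SD, n = 3). Mouse 4 was low and the single arrays ran from -0.29 to 1.16, on both sides of 0. In spleen it read 0.15, 0.58, 0.12 and 0.01, a mean of 0.22 ± 0.25 (SD, n = 4; limma adjusted p = 0.182), with 5 of 8 arrays above 0. The values of the tissues overlapped.

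In spleen, probes of Txndc12, Mgst2, Gsta3, Gstm2 and Gstm3 were among those higher in the mutant, and Sod2, Sod1, Selenov and Selenbp1 each had a probe that was lower. Of 78 member probes tested, 23 passed an adjusted p of 0.05 in limma, 17 higher and 6 lower. Over all probes on the array 25.3% passed, 13.4% higher and 11.9% lower; the members' shares were 29.5%, 21.8% and 7.69%. The median log2 ratio of the members was 0.05 against 0.04 over all probes, and 57.7% of members lay above 0 against 57.4% of all. As a group the members were thus near the background, and the description rests on single probes. All 23 had the same sign in every mouse, and 12 had the same sign on all 8 arrays. With 4 mice, the same sign in every mouse follows largely from passing the test. Neither count was set against all probes that passed. With an assumed variance of the pool added, 8 of the 23 passed: the Txndc12 probe 19019, Sod2, Selenov, Selenbp1, Gstm2, Gstm3, Mgst2 and Gsta3. Without mouse 4, 10 members passed, without mouse 2, 12 passed, and with the sign of the arrays that carried the mutant in Cy3 turned, 0 did, by limma (1 of all 20127 probes).

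**Figure D1:**
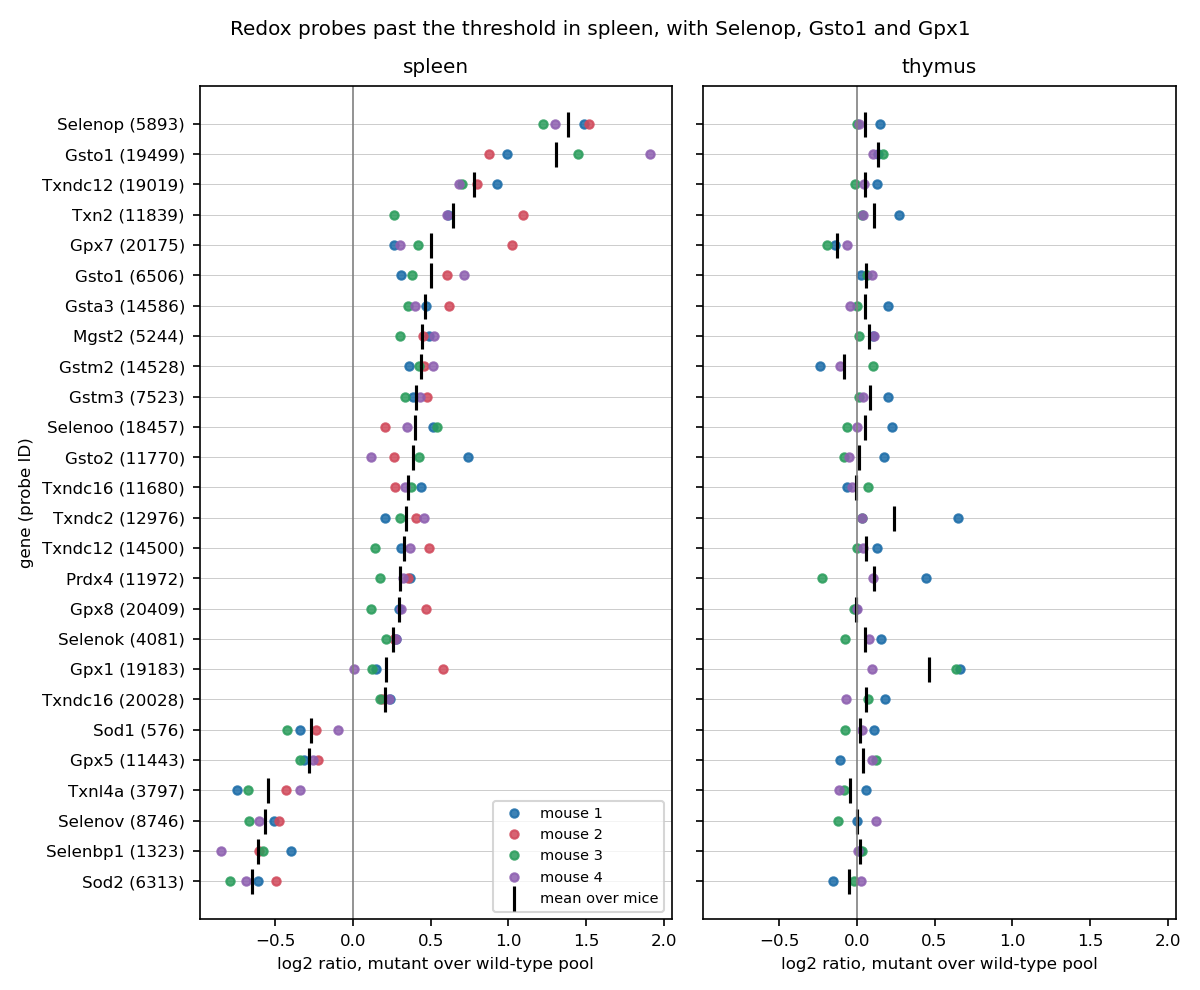
Log2 ratios of mutant over wild-type pool (horizontal axis) for the 23 redox probes past the threshold in spleen and the probes of Selenop, Gsto1 and Gpx1 that prompted the group (vertical axis, gene and probe ID); points are mice (means of 2 arrays) and bars are means over mice. In spleen the points of each of the 23 probes lie on 1 side of 0, and in thymus the means of the same 23 probes lie between -0.13 and 0.24.

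Among cytosolic glutathione transferases, which conjugate glutathione to foreign and endogenous compounds, 5 of 20 tested probes rose in spleen and 0 fell. Over all probes 13.4% passed as higher and 11.9% as lower, shares that stand beside the count of each class here and below. Gsta3, an alpha-class enzyme, read 0.47, 0.62, 0.35 and 0.40, a mean of 0.46 ± 0.12 (SD, n = 4; limma adjusted p = 0.00761), and was above 0 on all 8 arrays. The mu-class Gstm3 read 0.39, 0.48, 0.34 and 0.43, a mean of 0.41 ± 0.06 (SD, n = 4; limma adjusted p = 0.00731), also above 0 on every array. The mice lay close together for both probes. Gstm2 was as even between mice, at 0.36, 0.46, 0.43 and 0.51 (0.44 ± 0.06, SD, n = 4; limma adjusted p = 0.00622). Its arrays ran from -0.59 to 1.31, with a mean of 0.73 with the mutant in Cy5 and 0.15 in Cy3. The small spread of the Gstm2 mouse means thus hides a wide spread between dyes. With a running median over neighbouring probe IDs removed, Gsta3 was 0.26, Gstm3 0.24, Gstm2 0.25 and the Gsto1 probe 6506 0.27, all still past the threshold. The mu-class genes are close copies of each other and probe sequences were not used here, so a signal of one may include another; Gstm1 itself read 0.06 ± 0.20 (SD, n = 4) and did not pass. Gsto2, the omega-class relative of Gsto1, passed at 0.39 ± 0.27 (SD, n = 4; limma adjusted p = 0.0492), and with that median removed it was 0.24 and did not (limma adjusted p = 0.195).

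The other cytosolic transferases did not pass. The pi-class Gstp1 had a spleen mean of -0.02 ± 0.08, the theta-class Gstt1 -0.09 ± 0.10 and the kappa-class Gstk1, a mitochondrial and peroxisomal enzyme, -0.26 ± 0.45 (SD, n = 4). Probes of Gsta2, Gsta4 and the further theta-class genes had means between -0.10 and 0.08. A Gstm5 probe at 0.48 ± 1.26 (SD, n = 3) rested on mouse 1, at 1.93, and its second probe averaged 0.08. Gstz1, which also degrades tyrosine, had a probe above 0 in all 4 mice (0.45 ± 0.39, SD, n = 4), highest in mouse 3 at 1.02, and another at -0.05. Of the 2 microsomal transferases, Mgst2, a membrane enzyme that can make leukotriene C4, read 0.49, 0.45, 0.30 and 0.52, whereas Mgst3 averaged 0.02 ± 0.17 (SD, n = 4). The Mgst2 mean of 0.44 ± 0.10 (SD, n = 4) passed, with a limma adjusted p of 0.00745, and its 8 arrays were all above 0. The difference between Mgst2 and Mgst3 was not tested.

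The thioredoxin group, 24 tested probes, had 6 that rose and 1 that fell. The largest of these changes was in Txndc12, a thioredoxin-fold oxidoreductase of the endoplasmic reticulum: probe 19019 read 0.93, 0.80, 0.70 and 0.68, a mean of 0.78 ± 0.11 (SD, n = 4; 1.71-fold; limma adjusted p = 0.00401). Its 8 arrays ran from 0.57 over a median of 0.74 to 1.12, with 0.74 where the mutant carried Cy5 and 0.81 where it carried Cy3. A second Txndc12 probe (14500) read 0.31, 0.49, 0.14 and 0.37, with a mean of 0.33 ± 0.14 (SD, n = 4; limma adjusted p = 0.0272). Both probes were higher in all 4 mice. Txndc16, another protein of that compartment, passed with probe 11680 at 0.35 ± 0.07 and probe 20028 at 0.21 ± 0.03 (SD, n = 4), while probe 9587 averaged 0.12 ± 0.30 and did not. With the running median over neighbouring probe IDs removed, the Txndc16 probe 11680 was 0.03 (limma adjusted p = 0.765) and the Txndc12 probe 14500 0.16 (limma adjusted p = 0.175).

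Txn2, the mitochondrial thioredoxin, had a probe (11839) at 0.61, 1.10, 0.27 and 0.61, a mean of 0.64 ± 0.34 (SD, n = 4; limma adjusted p = 0.0190), in which mouse 2 was highest. Its other probe averaged -0.17 ± 0.17 (SD, n = 4) and did not pass. The cytosolic thioredoxin Txn1 read 0.18 ± 0.19, and the thioredoxin reductases, which return electrons from NADPH, lay between -0.12 and 0.14 over 6 probes, none past the threshold. Txndc2, a thioredoxin of sperm, passed at 0.34 ± 0.11 (SD, n = 4; limma adjusted p = 0.0179). Probes of Txndc5, Txndc8, Txndc11, Txndc15, Txnl1 and Txnl4b had means between -0.24 and 0.34 and did not pass. The probe that fell belonged to Txnl4a, a thioredoxin-fold protein of the splicing machinery rather than a redox enzyme: it read -0.75, -0.43, -0.67 and -0.34, a mean of -0.55 ± 0.19 (SD, n = 4; limma adjusted p = 0.00922), below 0 on all arrays. The other 2 Txnl4a probes averaged 0.04 ± 0.18 and -0.16 ± 0.14 (SD, n = 4), and neither passed.

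Superoxide dismutases had 2 probes that fell. Sod2, the mitochondrial manganese enzyme, read -0.61, -0.50, -0.79 and -0.69 with probe 6313, a mean of -0.65 ± 0.12 (SD, n = 4; 0.638-fold; limma adjusted p = 0.00412). The 8 arrays ran from -1.05 over a median of -0.57 to -0.40, all below 0. A second Sod2 probe (15140) had both arrays in 2 mice only, at 0.07 and -0.36, and was not tested. Sod1, the copper-zinc enzyme of the cytosol, gave -0.34, -0.24, -0.42 and -0.09 with probe 576, a mean of -0.27 ± 0.14 (SD, n = 4; limma adjusted p = 0.0466). Its other probe (7909) averaged 0.24 ± 0.17 (SD, n = 4; limma adjusted p = 0.0886), on the other side of 0 and not past the threshold. The extracellular Sod3 averaged 0.16 ± 0.07 and catalase, which breaks down hydrogen peroxide, 0.15 ± 0.20 (SD, n = 4); neither passed.

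Among 12 tested probes of the Selen family, apart from the one that prompted the group, 2 rose and 2 fell. Selenov, a selenoprotein known from testis, read -0.50, -0.47, -0.67 and -0.60, a mean of -0.56 ± 0.09 (SD, n = 4; 0.677-fold; limma adjusted p = 0.00422). Selenbp1, a selenium-binding methanethiol oxidase that carries no selenocysteine, read -0.40, -0.61, -0.58 and -0.85, a mean of -0.61 ± 0.18 (SD, n = 4; 0.656-fold; limma adjusted p = 0.00638). Both were below 0 on all 8 arrays. Selenoo, a mitochondrial selenoprotein, rose with 0.51, 0.20, 0.54 and 0.35, a mean of 0.40 ± 0.16 (SD, n = 4; limma adjusted p = 0.0169). Selenok, of the endoplasmic reticulum membrane, had 1 probe at 0.26 ± 0.03 (SD, n = 4; limma adjusted p = 0.0249) and another at -0.07 ± 0.12 that did not pass. The remaining probes of the family (Selenbp2, Selenof, Selenom, Selenon, Selenos and Selenow) had means between -0.19 and 0.30 and did not pass; the highest of these, Selenom, rested on mouse 1 at 1.14.

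Of 8 glutathione peroxidase probes, 2 rose and 1 fell. Gpx8 and Gpx7, peroxidases of the endoplasmic reticulum that lack selenocysteine, passed with 1 probe each. Gpx8 averaged 0.30 ± 0.14 with probe 20409 (SD, n = 4; limma adjusted p = 0.0369) and -0.15 ± 0.08 with probe 4089, which did not pass; with the running median removed, probe 20409 was 0.58. Gpx7 read 0.26, 1.02, 0.42 and 0.30 (0.50 ± 0.35, SD, n = 4; limma adjusted p = 0.0440), with a mean of 1.01 where the mutant carried Cy5 and -0.01 where it carried Cy3. The Gpx7 call thus rests on 1 dye orientation, and without mouse 2 its value was 0.33 and not past the threshold (limma adjusted p = 0.0618). Gpx5, the epididymal peroxidase, fell with -0.31, -0.23, -0.34 and -0.26 (-0.28 ± 0.05, SD, n = 4; limma adjusted p = 0.0203), at -0.54 in Cy5 and -0.03 in Cy3. The phospholipid peroxidase Gpx4 averaged 0.06 ± 0.07 (SD, n = 4) and did not pass, nor did Gpx2 at -0.04 ± 0.13 and Gpx6 at -0.30 ± 0.19 (SD, n = 4).

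Peroxiredoxins reduce peroxides with electrons from thioredoxin. Prdx4, the form of the endoplasmic reticulum, rose by 0.30 ± 0.09 (SD, n = 4; limma adjusted p = 0.0217) and Prdx2 averaged -0.12 ± 0.29 without passing. Prdx1 had both arrays in 1 spleen mouse only and was not tested. None of the 4 probes of glutathione synthesis passed: Gclm, the regulatory subunit of the first enzyme, read -0.11 ± 0.23 (SD, n = 4; limma adjusted p = 0.424), the 2 probes of the catalytic subunit Gclc 0.05 ± 0.12 and -0.07 ± 0.09, and Gss 0.01 ± 0.23. Heme oxygenase 1, which degrades heme, read -0.05, -0.02, 0.02 and 0.04 (limma adjusted p = 0.973).

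Since the gene names are those of the annotation, different probes of a gene were set side by side. Among 15 member genes with at least 2 tested probes, 10 of 21 probe pairs (47.6%) had spleen means of the same sign, against 50.4% of 4797 pairs over all named genes. Both probes passed in 2 of these member pairs, of Txndc12 and Txndc16, each with the same sign. Over all named genes 54.0% of 324 such pairs had the same sign. Probes with unrelated signs would give shares near those over all named genes. A gene's value here is therefore that of a named probe. The gene names may not match the measured rows, and whether each probe reads the named transcript was not tested.

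**Figure D2:**
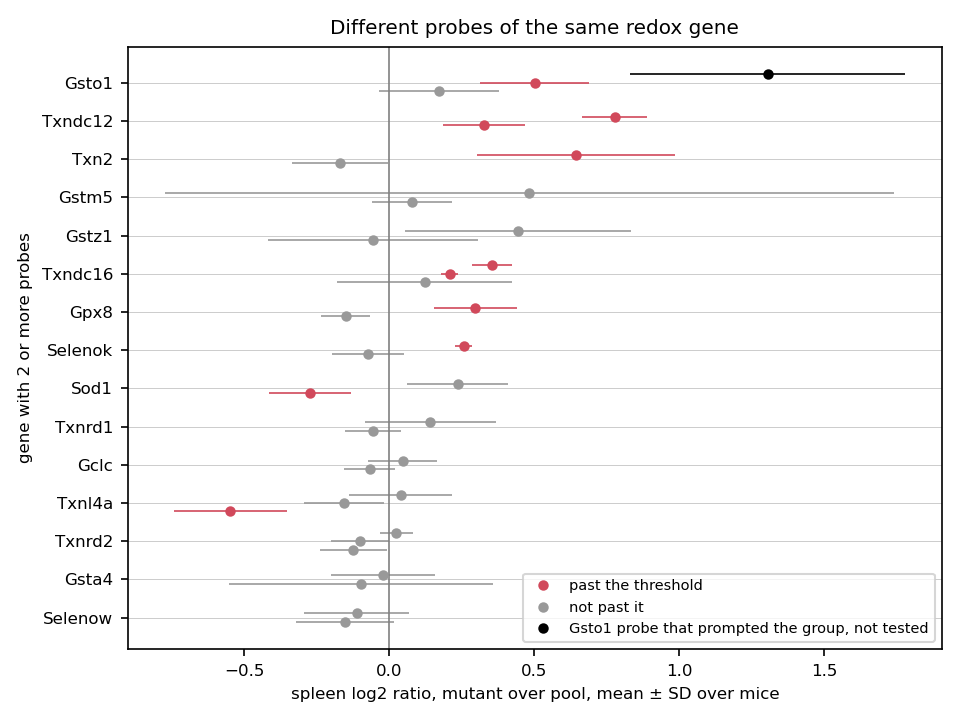
Spleen log2 ratio of mutant over pool (horizontal axis, mean with SD over mice) of each probe of the 15 redox genes with at least 2 tested probes (vertical axis); red probes passed the threshold, grey ones did not, and the black Gsto1 probe prompted the group. Gsto1 and Txndc12 have all probes above 0, whereas Txn2, Gpx8, Selenok and Sod1 have probes on both sides of 0.

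The dye orientations were also set apart. In spleen 47 of 78 members (60.3%) had the same sign with the mutant in Cy5 and in Cy3, against 60.8% of all probes. Of the 23 that passed, 22 (95.7%) did, all but Gpx7, against 96.6% of all probes that passed. In thymus 33 of 80 members (41.3%) did, against 32.1% of all probes. The Cy5 and Cy3 means correlated across the members at r = 0.359 in spleen and -0.458 in thymus, and across all probes at 0.357 and -0.506; the points share arrays and mice, and the values are a description.

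**Figure D3:**
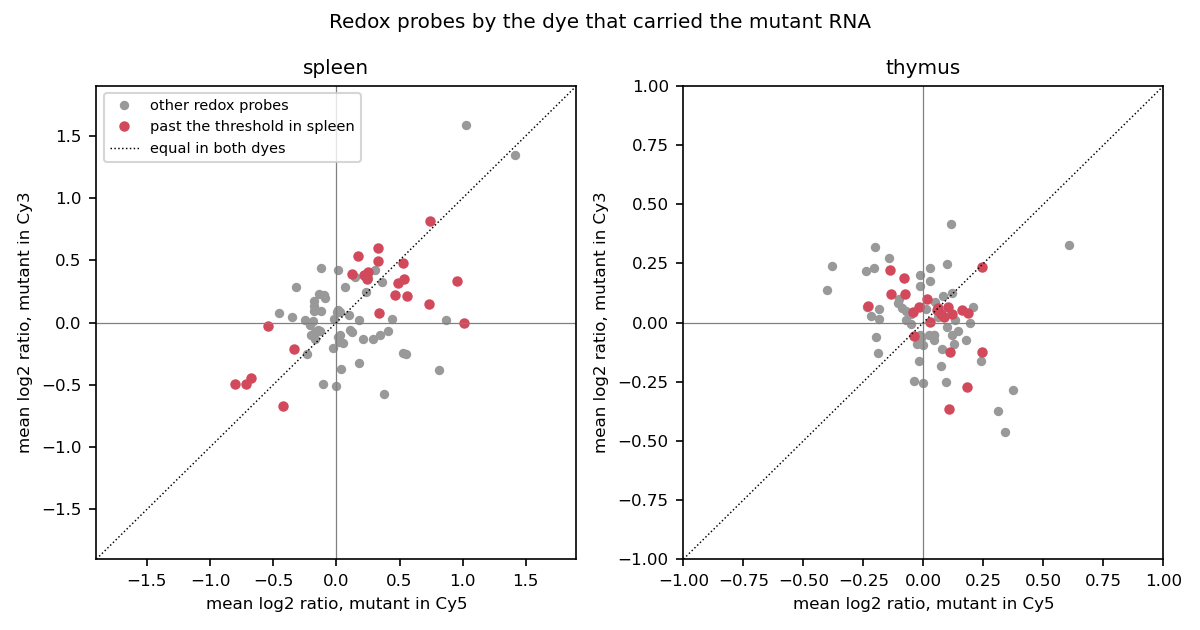
Mean log2 ratio of each redox probe with the mutant in Cy5 (horizontal axis) and in Cy3 (vertical axis), in spleen on the left and thymus on the right; red points passed the threshold in spleen, grey points are the other redox probes, and the dotted line marks equal values. Of the 23 red points in spleen, 22 have the same sign on both axes, whereas 33 of 80 thymus points do, Gpx1 left out.

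In thymus no redox probe changed past the threshold. Of 80 member probes tested, 0 passed in limma, as did 0% of all 20130 probes; 4 members and 725 of all probes had an unadjusted p under 0.05. The members' means ran from -0.16 to 0.27, with a median of 0.01 against 0.00 over all probes, and 52.5% lay above 0 against 52.7% of all. The smallest p-values above 0 were those of the Gsto1 probe 19499, at 0.14, 0.17 and 0.10 in mice 1, 3 and 4, and of Txnl4b, a splicing relative of Txnl4a, at 0.09, 0.10 and 0.20. Below 0 they were those of Txndc15, at -0.10, -0.26 and -0.11, and of Gpx7, at -0.14, -0.19 and -0.06. Each of these 4 had the same sign in the 3 mice, and each had a limma adjusted p of 0.866. Selenbp2 and Txndc2, the next highest means after Gpx1 at 0.27 ± 0.40 and 0.24 ± 0.36 (SD, n = 3), rested on mouse 1, which read 0.73 and 0.65. With the sign of the Cy3 arrays turned, 0 members passed in limma as well. The unsettled orientation of the thymus ratios bears on these values and on every difference between the tissues.

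Spleen and thymus ratios differed for 13 of 77 member probes (16.9%) in a joint limma fit, 8 with a higher and 5 with a lower ratio in spleen. Over all probes 13.9% differed, 5.91% higher and 8.04% lower in spleen. The largest was Txndc12 probe 19019, with a difference of 0.72 ± 0.09 (SE; limma adjusted p = 0.00472). Sod2 differed by -0.60 ± 0.09 (SE; limma adjusted p = 0.00790), Selenov by -0.56 ± 0.09 (SE; limma adjusted p = 0.00814) and Selenbp1 by -0.63 ± 0.11 (SE; limma adjusted p = 0.00963). All 13 had spleen and thymus mice that did not overlap, as had 99.9% of all probes called for the difference; over all members it was 27.3% and over all probes 31.0%. The transferases Gstm2, Gsta3, Mgst2 and Gstm3 and the Gsto1 probe 6506 were also higher in spleen than in thymus, by 0.52, 0.41, 0.36, 0.32 and 0.44 on the log2 scale, as were Txndc16 probe 11680 (0.36) and Gpx7 (0.63). Txnl4a and Gpx5 were lower, by -0.50 and -0.32. The probes that prompted the group differed by 1.33 ± 0.10 for Selenop, 1.17 ± 0.23 for Gsto1 and -0.25 ± 0.18 for Gpx1 (SE, no test).

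The same animals gave both tissues. With the mouse as a replicate block, on mice with both tissues, 3 of 75 member probes differed (Selenov, Sod2 and Txndc12 probe 19019), and 601 of 19381 probes in all. With an assumed variance of the pool added, the Txndc12 probe alone remained, and without mouse 3 or without mouse 4 0 members passed in limma, where 10 and 0 of all probes did. The calls for the difference therefore depend on each of those mice.

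**Figure D4:**
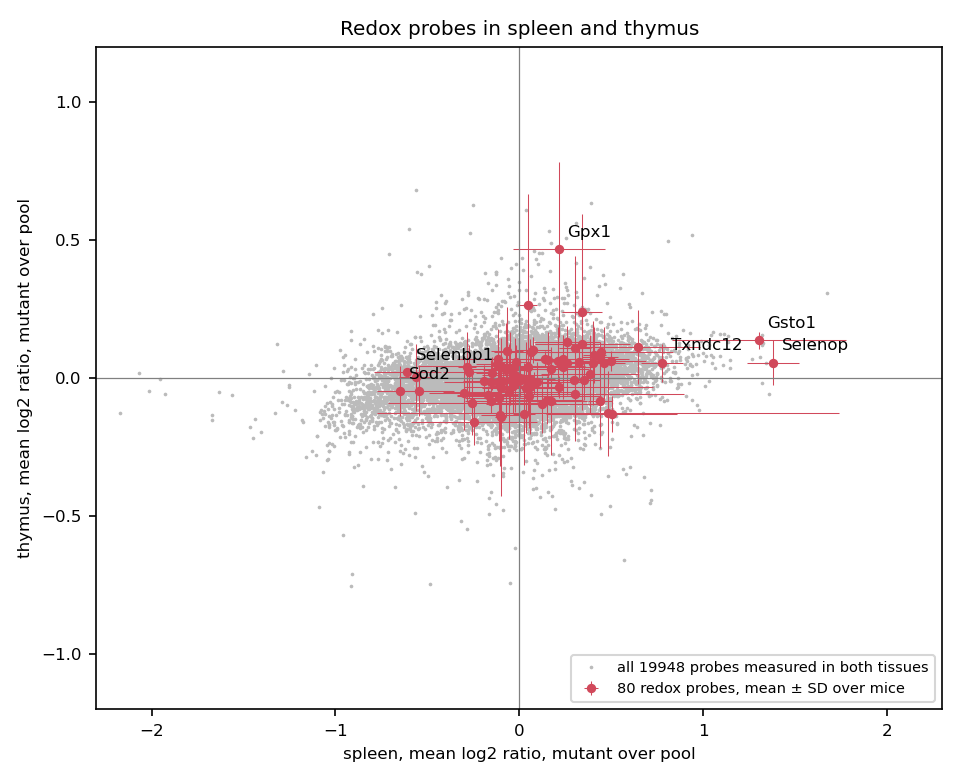
Mean log2 ratio of mutant over pool in spleen (horizontal axis) and thymus (vertical axis); grey points are all 19948 probes measured in both tissues and red points the 80 redox probes, with SD over mice as lines. Selenop and the Gsto1 probe that prompted the group lie far right at 1.38 and 1.31 in spleen and near 0 in thymus, and Gpx1 lies highest of the redox probes in thymus at 0.47.

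Other genes of the pathway, from 7 lists beside the members, had probes on both sides of 0 in spleen. The count of each list stands beside shares over all probes of 13.4% higher and 11.9% lower. Of 7 probes for selenocysteine synthesis and selenium uptake 0 rose and 2 fell: Lrp8, a receptor for Selenop, at -0.40 ± 0.15 with probe 17894 (SD, n = 4; limma adjusted p = 0.0155), and Sephs1, a relative of selenophosphate synthetase, at -0.28 ± 0.11 (SD, n = 4; limma adjusted p = 0.0334). Of 3 probes for other selenoproteins 1 fell, Dio2, a deiodinase that activates thyroid hormone, at -0.28 ± 0.15 (SD, n = 4); the methionine sulfoxide reductase Msrb1 averaged 0.23 ± 0.33 and did not pass. A second Lrp8 probe (4931) averaged 0.14 ± 0.19 (SD, n = 4) and did not pass. The list medians were -0.12 and 0.06.

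Regulators of NRF2 gave 3 of 12 probes higher and 2 lower, with a median of 0.01. Sqstm1, which binds the NRF2 inhibitor Keap1, rose by 0.43 ± 0.10 with probe 18298 (SD, n = 4; limma adjusted p = 0.00833), or 0.21 (limma adjusted p = 0.0669) with the running median removed. Its other probes averaged 0.27 ± 0.25 and -0.32 ± 0.34 (SD, n = 4) and did not pass. Mafk, a partner of NRF2 on DNA, rose by 0.37 ± 0.14 (SD, n = 4; limma adjusted p = 0.0173). The inhibitor Keap1 also rose, by 0.24 ± 0.06 (SD, n = 4). Lower were Mafg probe 5257 at -0.28 ± 0.14 and Nfe2l1 probe 241 at -0.25 ± 0.05 (SD, n = 4). The other Mafg and Nfe2l1 probes did not pass. NRF2 targets outside the members gave 2 of 17 higher and 1 lower, with a median of 0.14. Blvrb, a biliverdin reductase, rose by 0.54 ± 0.12 and Ftl1, the light chain of ferritin, by 0.41 ± 0.05 (SD, n = 4), with limma adjusted p of 0.00521 and 0.00664. The lower one was Tkt, at -0.40 ± 0.13 (SD, n = 4, limma adjusted p = 0.0139).

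Glutathione turnover and glutaredoxins gave 5 of 22 probes higher and 2 lower, with a median of 0.10. Higher were Oplah probe 12941 (0.43), Ggct (0.34), Lap3 (0.30), Glrx5 (0.24) and Chac2 probe 7896 (0.23). A second probe of Oplah and one of Chac2 did not pass. The lower ones were Esd, which hydrolyses a glutathione thioester in formaldehyde removal, at -0.59 ± 0.13, and Gstcd, a protein with a transferase-like domain, at -0.49 ± 0.17 (SD, n = 4), with limma adjusted p of 0.00468 and 0.0101. Oxidant sources gave 2 of 12 higher and 3 lower, with a median of 0.11. Rac2 rose by 0.44 ± 0.14 and Maoa by 0.32 ± 0.08 (SD, n = 4), with limma adjusted p of 0.0109 and 0.0180. Cyba, a membrane subunit of the phagocyte NADPH oxidase, read -1.24, -1.11, -0.70 and -0.97 in the 4 mice, and Mpo, the neutrophil peroxidase, averaged -0.58 ± 0.04 with probe 4927 (SD, n = 4), each with a limma adjusted p of 0.00401. The other Mpo probes averaged 0.31 ± 0.46 and -0.15 ± 0.08 (SD, n = 4) and did not pass. Other antioxidant genes gave 3 of 19 higher and 2 lower, with a median of 0.08. Among them the 2 probes of Msra, a methionine sulfoxide reductase, went opposite ways: probe 16006 averaged -0.83 ± 0.19 and probe 17092 0.62 ± 0.15 (SD, n = 4), both past the threshold. In thymus 0 probes of the 7 lists passed in limma.

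Markers of cell types of spleen and of thymus moved in both directions in spleen beside these results. Over all probes in spleen 13.4% passed as higher and 11.9% as lower. Of 5 macrophage marker probes, with means from -0.46 to 0.63, C1qc rose by 0.63 ± 0.11 while C1qb averaged -0.42 ± 0.05 and Cd5l -0.46 ± 0.17 (SD, n = 4), all past the threshold. Of 12 granulocyte probes 0 rose and 3 fell, within a range of -0.59 to 0.31, and of 8 erythroid probes 0 rose and 2 fell, within -0.94 to 0.10. Of 3 B cell probes 0 passed in limma (0.03 to 0.29), and of 5 T cell probes 1 fell (range -0.95 to 0.11). The 1 cortical thymocyte probe read -0.24 and did not pass, and of 7 thymic epithelium probes 1 rose and 1 fell (range -0.54 to 0.55). Liver, adipose and pancreas markers gave 1 higher and 1 lower of 5, 0 higher and 1 lower of 3, and 0 of 2. Such ratios can show a shift of other tissue between mutant and pool, not its presence. The part of these shifts in the redox values was not tested.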

How the data were processed

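Per the labels' protocols, total RNA was labelled indirectly with Cy3 or Cy5 and hybridised with the reference in the other dye. The authors deposited log ratios, read here as log2 ratios because a constant of 15.1 to 16.9 in size marks probes without a usable value; other values were at most 7.66 in size. The constant was set to missing. For the scanner, image software, normalization and build, nothing is stated in the labels, so they are not given here.

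The mean of a mouse's 2 dye-exchanged arrays was 1 replicate, and a probe was tested with at least 3 mice. Means against 0 were tested with limma 3.58.1 in R 4.3.3, each tissue fitted alone, with Benjamini-Hochberg adjustment over all probes; the tissue difference came from 1 joint fit. Scripts were tested on simulated data. The members, gene lists and tests were chosen with earlier results of these data known. Named probes were those that prompted the group, other probes of those genes, the 8 smallest spleen p in each direction, the 2 smallest thymus p in each direction, the 4 smallest for the difference, 1 for each class without any, and 2 for each list; probes named beyond this were chosen after their values were seen. Mouse numbers pair the tissues because the labels give the same animals; deviations of the same mouse correlated at -0.057, -0.002 and -0.073. Alternatives covered the spread shared, the pool's variance, centring, neighbouring probes, orientation, missing values, gene means and single mice.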

Additional observations from a re-analysis of the deposited data

Results flagged for a closer look

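The mutant-over-pool ratio of 13 redox probes differed between spleen and thymus in the joint limma fit, 16.9% of 77 tested, against 13.9% of all probes. With the mouse as replicate block 3 of them passed. With the running median over neighbouring probe IDs removed 6 of them did, and of those higher in spleen only Txndc12 probe 19019. Those with a higher ratio in spleen were Txndc12 probe 19019 (0.72 on the log2 scale), Gpx7 (0.63), Gstm2 (0.52), Gsto1 probe 6506 (0.44), Gsta3 (0.41), Mgst2 (0.36), Txndc16 probe 11680 (0.36) and Gstm3 (0.32). Those with a lower ratio were Selenbp1 (-0.63), Sod2 (-0.60), Selenov (-0.56), Txnl4a (-0.50) and Gpx5 (-0.32). Since earlier Gsto1 values in spleen prompted the group, the test of Gsto1 probe 6506 is no independent support. In none of the 24 named redox probes, all with 4 spleen mice, did 1 mouse stand apart from the others by Dixon's criterion. Most of these were named for a small p, and the other redox probes were not part of that check.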

How the results depend on the processing

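No intensities and 1 wild-type pool limit all values. In spleen, 23 members passed (17 higher, 6 lower): with the variance of the pool added 8 did (5 and 3), in a test against a 1.2-fold change 3 (1 and 2), and with the sign of the Cy3 arrays turned 0 (0 and 0; limma). Gene means gave 11 higher. Leaving out 1 mouse gave 10 to 22 passed, 6 to 15 higher and 4 to 7 lower. Over all probes 5086 passed; 1689 with the pool's variance (584 higher), 887 against a 1.2-fold change, 1 with the sign turned, 2351 without mouse 2, 2366 without mouse 4 and 3962 with the running median removed (1702 higher), against 2691 higher as reported. In thymus 0 members passed under every alternative run.

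For the difference 13 passed (8 and 5). With the replicate block 3 did (1 and 2), with the running median removed 7 (2 higher) and with the pool's variance 1 (1 and 0). In a 1.2-fold test or with the sign turned 0 did (0 and 0), and gene means gave 5 higher. The sign was turned in both tissues at once, and in spleen the turn left 1 of 20127 probes past the threshold. That 0 for the difference therefore cannot decide the orientation of the thymus ratios, and thymus turned alone was not run. Leaving out 1 mouse gave 0 to 8 passed, 0 to 4 higher and 0 to 4 lower. Over all probes 2781 differed, 601 with the block, 267 with the pool's variance, 4 in the 1.2-fold test, 0 with the sign turned, 10 without mouse 3, 0 without mouse 4 and 4553 with thymus mouse 2 kept. With the running median removed 2091 of 19948 differed, 725 of them higher.

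With the sign of the Cy3 arrays turned, spleen values changed side by that construction: Gsto1 probe 19499 to -0.28, Gpx1 to -0.20, Txndc12 probes 19019 and 14500 to -0.035 and -0.076, Gstm3 to -0.083, Gsta3 to -0.14, Txndc16 probe 11680 to -0.18, Prdx4 to -0.082, Selenok to -0.13, Gpx8 to -0.055, Blvrb to -0.051, Txnl4a to 0.12, Lrp8 to 0.19, Sephs1 to 0.060, Dio2 to 0.10, Cyba to 0.028 and Mpo to 0.025. In thymus Txnl4b went to -0.10 and Gpx7 to 0.23. For the difference, with both tissues turned, Selenop went to -0.054, Gsto1 probe 19499 to -0.35 and Txndc12 to -0.065. Hmox1, at -0.00 in spleen, ran from -0.0185 to 0.0130 without 1 mouse each (0.0028 without mouse 2) and was 0.052 with the running median removed. Gpx7 was -0.0055 on spleen arrays with the mutant in Cy3 alone, and the gene mean of Msra, over probes of opposite sign, was -0.10.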
